A study of Homo sapiens with 8 samples.

Results

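Small nucleolar RNA (snoRNA) host genes are transcription units whose spliced-out introns carry snoRNAs. The 10 non-coding hosts GAS5, SNHG1, SNHG5, SNHG6, SNHG7, SNHG8, SNHG12, SNHG15, ZFAS1 and EPB41L4A-AS1 were chosen by name from the 58688 genes counted, and all 10 were found by matching their symbols to Ensembl gene IDs. Their RNA was measured by RNA-seq in LM2 cells, a lung-metastatic derivative of the triple-negative human breast cancer line MDA-MB-231. Ponatinib, an inhibitor of ABL and several other tyrosine kinases, was compared with its solvent DMSO, and knockdown of ABL1, ABL2 or both was compared with a scrambled short hairpin RNA (shRNA), to ask how much of the response to the drug runs through ABL. The study made 2 libraries of DMSO-treated cells, 2 of cells given 1 µmol/L Ponatinib for 6 h, and 1 each of cells carrying scrambled shRNA, ABL1 shRNA, ABL2 shRNA, or ABL1 and ABL2 shRNA together. The shRNA cells were incubated with lentivirus for 48 h and harvested once selected with puromycin. They carried 1 shRNA sequence a gene and received no Ponatinib. Nothing in the labels says that the replicates were separate cultures, so P values measure the spread between these libraries, which may be technical.

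SnoRNAs are trimmed out of the introns and guide ribose methylation (box C/D class, SNORD genes) or pseudouridylation (box H/ACA class, SNORA genes) of ribosomal and other RNAs. The spliced exons that remain have little coding capacity, and the transcripts of several hosts are removed by nonsense-mediated mRNA decay (NMD), a surveillance pathway that degrades RNAs with early stop codons while they are translated. Many hosts, coding and non-coding, start with a tract of pyrimidines at the 5′ end (5′ TOP), a feature shared with the mRNAs of ribosomal proteins. Read counts of a host gene therefore report its spliced and unspliced RNA and not the snoRNAs, which are stable on their own.

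The hosts fall into groups by the snoRNAs that RefSeq places inside them; the positions given are GENCODE's on GRCh38. GAS5 (chr1:173858559-173868882, minus strand, 11 snoRNAs), SNHG1 (chr11:62851978-62855953, minus, 9 snoRNAs), SNHG5 (chr6:85650491-85678932, minus, 2), SNHG6 (minus, 1) and ZFAS1 (chr20:49278178-49299600, plus, 3) hold chiefly or only box C/D snoRNAs. SNHG7 (chr9:136721366-136728184, minus, 2), SNHG8 (chr4:118278703-118285316, plus, 1), SNHG15 (chr7:44983019-44986961, minus, 1) and EPB41L4A-AS1 (chr5:112160526-112164818, plus, 1) hold box H/ACA snoRNAs. SNHG12 (chr1:28578538-28583132, minus, 4) holds both classes. All 10 are annotated as long non-coding RNA genes, and 33 of the 35 snoRNAs lie in introns of the host's canonical transcript, the exceptions being SNORA103 in GAS5 and SNORA9 in SNHG15.

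The promoters are shown because the 10 genes share a role and the sequence at the start was not used to choose them. RefSeq promoter sequences (GRCh38.p14) were matched for 8 hosts; SNHG6 and SNHG15 were not matched. Each window below runs 5′ to 3′ on the gene's strand, from 45 bases before to 20 bases from the annotated start onward; capitals mark the letters TATAA between 40 and 15 bases before the start, and a run of at least 4 C or T letters that begins with C at the first transcribed base. The first 4 windows hold both features, SNHG8 holds TATAA alone, and SNHG1 holds neither.
SNHG12, chr1:28581854-28581918, minus strand: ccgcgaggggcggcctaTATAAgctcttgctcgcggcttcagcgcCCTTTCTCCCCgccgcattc
SNHG5, chr6:85678714-85678778, minus strand: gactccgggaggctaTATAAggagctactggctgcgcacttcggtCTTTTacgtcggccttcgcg
SNHG7, chr9:136728165-136728229, minus strand: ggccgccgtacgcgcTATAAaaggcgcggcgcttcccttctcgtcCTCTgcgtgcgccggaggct
ZFAS1, chr20:49278597-49278661, plus strand: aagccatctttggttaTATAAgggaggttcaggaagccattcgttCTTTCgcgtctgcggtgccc
SNHG8, chr4:118278717-118278781, plus strand: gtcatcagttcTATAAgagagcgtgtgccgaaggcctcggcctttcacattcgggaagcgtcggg
SNHG1, chr11:62855866-62855930, minus strand: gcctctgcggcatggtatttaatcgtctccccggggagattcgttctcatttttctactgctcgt

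The pyrimidine run stood at the start of 4 of the 8 host promoters (50.0%), against 1914 of all 35116 promoters (5.45%) and 43 of 75 promoters of ribosomal protein genes (57.33%). TATAA on the gene's strand was found in 5 of the 8 hosts (62.5%), in 3.91% of all promoters and in 7 of the 75 ribosomal protein promoters (9.33%). On the other strand the same letters occurred in ZFAS1, where they overlap the first match, and in 1.73% of all promoters. Both features together were present in the same 4 hosts, in 49 of all promoters (0.14%) and in 5 of the ribosomal protein promoters (6.67%). A match is a description of the letters in this window, and the window follows the RefSeq start, which equals the start of GENCODE's canonical transcript for SNHG7, ZFAS1 and EPB41L4A-AS1 and differs for the other 5. For GAS5 the RefSeq start lies outside the GENCODE span, and neither GAS5 nor EPB41L4A-AS1 held either feature.

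Counts on genes totalled 7568934 to 13010896 a library, so that 3 counts correspond to between 0.2306 and 0.3964 CPM, the count scaled to a common library size. Ponatinib replicate 2 was the least deeply sequenced, and the Ponatinib replicates stood further apart than the DMSO replicates (chi-square per degree of freedom of 3.125 against 1.441). ABL1 was lowest in the library labelled ABL1 shRNA (72.6 CPM against 186.0 with scrambled shRNA) and ABL2 in the library labelled ABL2 shRNA (94.5 against 231.3 CPM), although the header cells of the ABL1 and scrambled tables carry one another's names. The double knockdown held 110.6 CPM of ABL1 and 149.4 of ABL2. VIM, CD44, KRT8 and KRT18, which LM2 cells should express, were present throughout, PGR was at 0, and PTPRC and ESR1 stayed under 1 CPM. The endothelial marker PECAM1 was at 2.38 to 4.04 CPM in the DMSO and Ponatinib libraries and at 20.1 to 40.1 CPM in the shRNA libraries. The DMSO and Ponatinib libraries and the shRNA libraries also differ in genes that were counted at all, with 68 genes well counted in the former and at 0 in the latter, none of them a host gene, and comparisons were made within each experiment.

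After Ponatinib, SNHG15, SNHG12 and SNHG1 fell, no host rose, and the other 7 did not pass the test. SNHG15 fell to 42.8% and SNHG12 to 49.5% of the DMSO level, and SNHG1 to 77.8%. The call was an adjusted p under 0.05 over all 16031 genes tested (edgeR quasi-likelihood fit, Benjamini-Hochberg adjusted, n = 2 libraries a group). By that rule 3 of 10 hosts were called, all lower, where 30.7% of all genes were called in either direction and 15.7% were called lower. Among genes with a mean of at least 100 counts, a depth all 10 hosts reach, 38.6% were called and 20.9% were called lower. SNHG12 and SNHG15 also met the study's rule for a differentially expressed gene, a fold change over 2 with an unadjusted P under 0.05, which 5.48% of all genes met in either direction and 2.29% by falling.

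**Figure D1:**
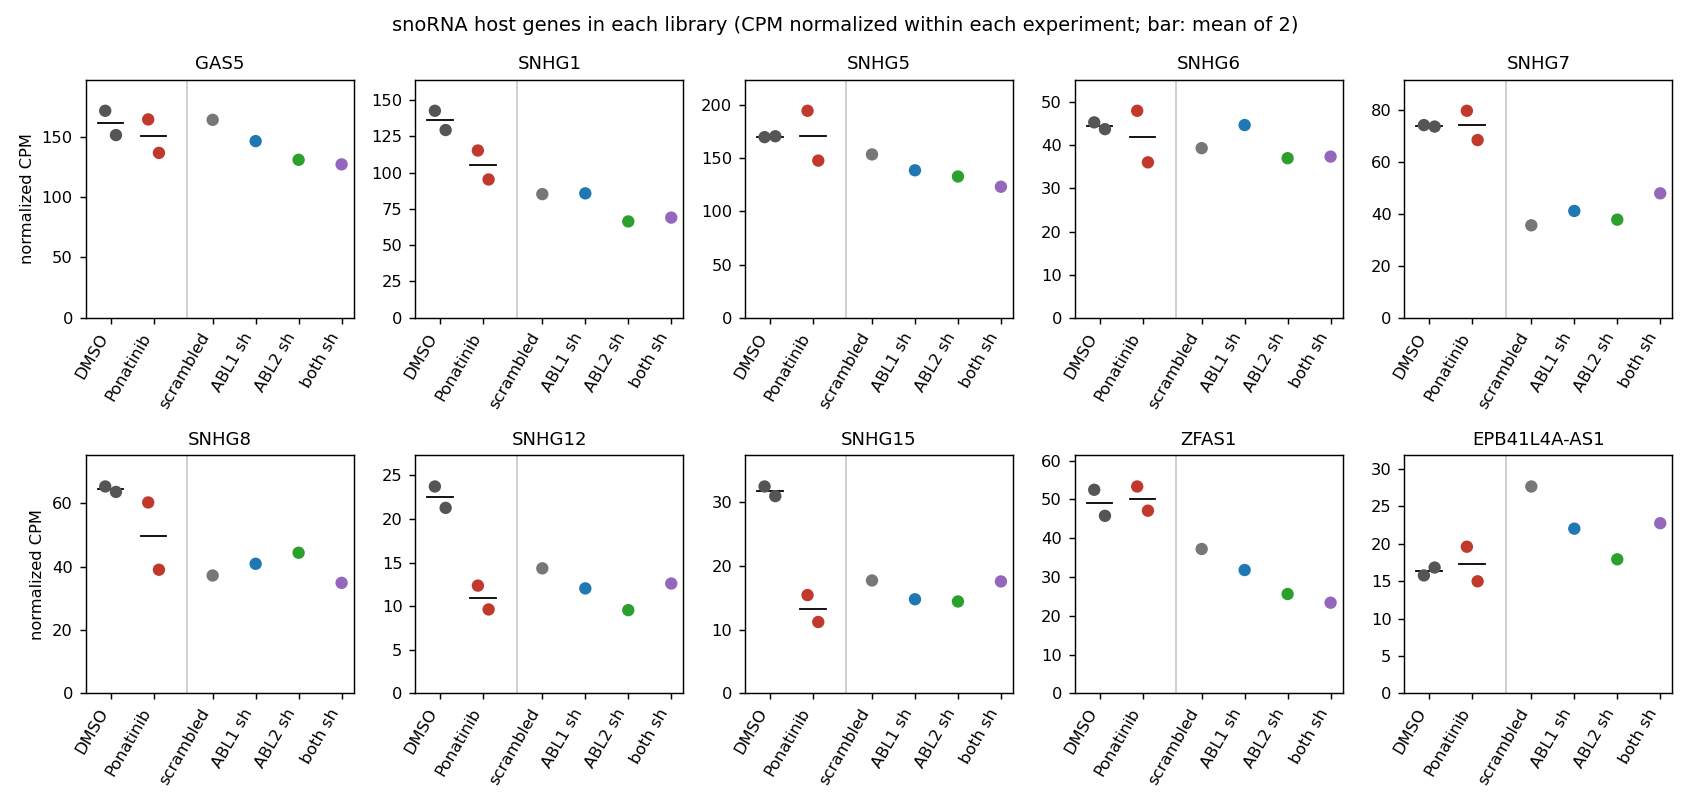
Normalized CPM (vertical axes, each starting at 0) of the 10 host genes in the 8 libraries, with points for libraries and bars for the mean of the 2 DMSO or Ponatinib replicates. CPM were normalized separately within the DMSO and Ponatinib libraries and within the shRNA libraries, on either side of the grey line; SNHG12 and SNHG15 are well below both DMSO points in both Ponatinib libraries.

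Among the box C/D hosts, SNHG1, whose exons surround a series of SNORD genes, was measured at 142.6 and 129.3 normalized CPM with DMSO and at 115.2 and 95.3 with Ponatinib. Both Ponatinib libraries were below both DMSO libraries. The means were 136.0 ± 9.4 and 105.3 ± 14.1 CPM (SD, n = 2 each). The log2 fold change was -0.36 with a standard error of 0.08 (95% interval -0.54 to -0.18, edgeR adjusted p = 0.0043). The call on SNHG1 was lost without DMSO replicate 1, when the log2 fold change was -0.29 (edgeR adjusted p = 0.0778).

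GAS5, named for its accumulation in growth-arrested cells, was at 171.5 and 151.4 CPM with DMSO and at 164.4 and 136.7 with Ponatinib. Its groups overlapped, and the log2 fold change of -0.10 had a 95% interval of -0.28 to 0.08 (edgeR adjusted p = 0.425). SNHG5, the host of SNORD50A and SNORD50B, was at 169.9 and 170.8 CPM with DMSO, and the Ponatinib libraries lay on either side at 194.7 and 147.9 CPM (log2 fold change 0.02, 95% interval -0.19 to 0.22). SNHG6, the host of SNORD87, had its Ponatinib libraries on either side of DMSO too, at 45.3 and 43.8 CPM with DMSO and 48.0 and 36.1 with Ponatinib (log2 fold change -0.07, 95% interval -0.30 to 0.17). ZFAS1, which carries 3 SNORD12 genes and lies head to head with the zinc finger gene ZNFX1, was at 52.5 and 45.8 CPM with DMSO and at 53.3 and 47.1 with Ponatinib. The ZFAS1 groups overlapped almost fully (log2 fold change 0.04, 95% interval -0.16 to 0.23).

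SNHG12, the host of SNORD99 and of 3 SNORA genes, was measured at 23.7 and 21.3 CPM with DMSO and at 12.4 and 9.63 with Ponatinib, from 268, 210, 130 and 74 counts. The groups were far apart compared with the gap between replicates. Its means were 22.5 ± 1.7 and 11.0 ± 1.9 CPM (SD, n = 2 each), and the log2 fold change was -1.01 with a standard error of 0.14 (95% interval -1.31 to -0.71, edgeR adjusted p = 6.45e-05). Of the genes tested, 2.22% had a lower fold change than SNHG12, whose value lay between -0.87 and -1.22 when any 1 of the 4 libraries was left out.

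Among the H/ACA hosts, SNHG15, which carries SNORA9 and is known as a short-lived transcript, was at 32.4 and 30.9 CPM with DMSO and at 15.4 and 11.2 with Ponatinib, from 366, 305, 162 and 86 counts. Every Ponatinib value was below every DMSO value by a wide margin. The means were 31.6 ± 1.1 and 13.3 ± 3.0 CPM (SD, n = 2 each). The log2 fold change was -1.22 with a standard error of 0.13 (95% interval -1.51 to -0.94, edgeR adjusted p = 5.24e-06), the largest fall of the 10, and 1.32% of all genes tested were lower still. With any 1 library left out, the value for SNHG15 lay between -1.04 and -1.49.

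SNHG8, the host of SNORA24, was at 65.3 and 63.6 CPM with DMSO and at 60.3 and 39.1 with Ponatinib. Both Ponatinib libraries were below DMSO, but replicate 1 lay close to the DMSO values and replicate 2 far from them. The log2 fold change of -0.35 (standard error 0.13) missed the threshold (edgeR adjusted p = 0.0548). SNHG8 was called with DESeq2's size factors in the edgeR fit (0.0486), without the filter on low counts (0.000409) and in the fit of all 8 libraries (0.033), at -0.35 to -0.37 on the log2 scale. It was not called with at least 10 counts in every library (edgeR adjusted p = 0.055) or with mitochondrial genes left out (edgeR adjusted p = 0.0543). DESeq2's own Wald test did not call it either (adjusted p = 0.472). SNHG8 moved to -0.71 without Ponatinib replicate 1 (edgeR adjusted p = 1.17e-11) and to -0.10 without Ponatinib replicate 2 (0.376), so its size rests on which Ponatinib library is used. SNHG7, with its pair of SNORA17 genes, was at 74.1 and 73.5 CPM with DMSO and at 79.6 and 68.3 with Ponatinib, on either side of DMSO (log2 fold change 0.01, 95% interval -0.16 to 0.18). EPB41L4A-AS1 carries SNORA13 and lies wholly within the span of EPB41L4A, on the opposite strand. Its values were 15.8 and 16.8 CPM with DMSO and 19.6 and 14.97 with Ponatinib. The EPB41L4A-AS1 groups overlapped (log2 fold change 0.11, 95% interval -0.19 to 0.41).

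The values of the groups did not overlap in 4 of the 10 hosts, SNHG1, SNHG8, SNHG12 and SNHG15, where 64.9% of all genes tested and 71.0% of genes with a mean of at least 100 counts did not overlap. The median log2 fold change of the 10 was -0.08, beside -0.01 over all genes tested. The count of called hosts depended on 1 library: without Ponatinib replicate 1 it was 7 of 10, all lower, with GAS5, SNHG5, SNHG6 and SNHG8 added, and SNHG5 was then at -0.19 (edgeR adjusted p = 0.00854). That fit called 34.7% of all genes, and 17.7% lower. Without Ponatinib replicate 2, SNHG5 was instead called higher, at 0.19 (edgeR adjusted p = 0.00341). In those fits the lone Ponatinib library was assumed to vary as the DMSO replicates did.

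**Figure D2:**
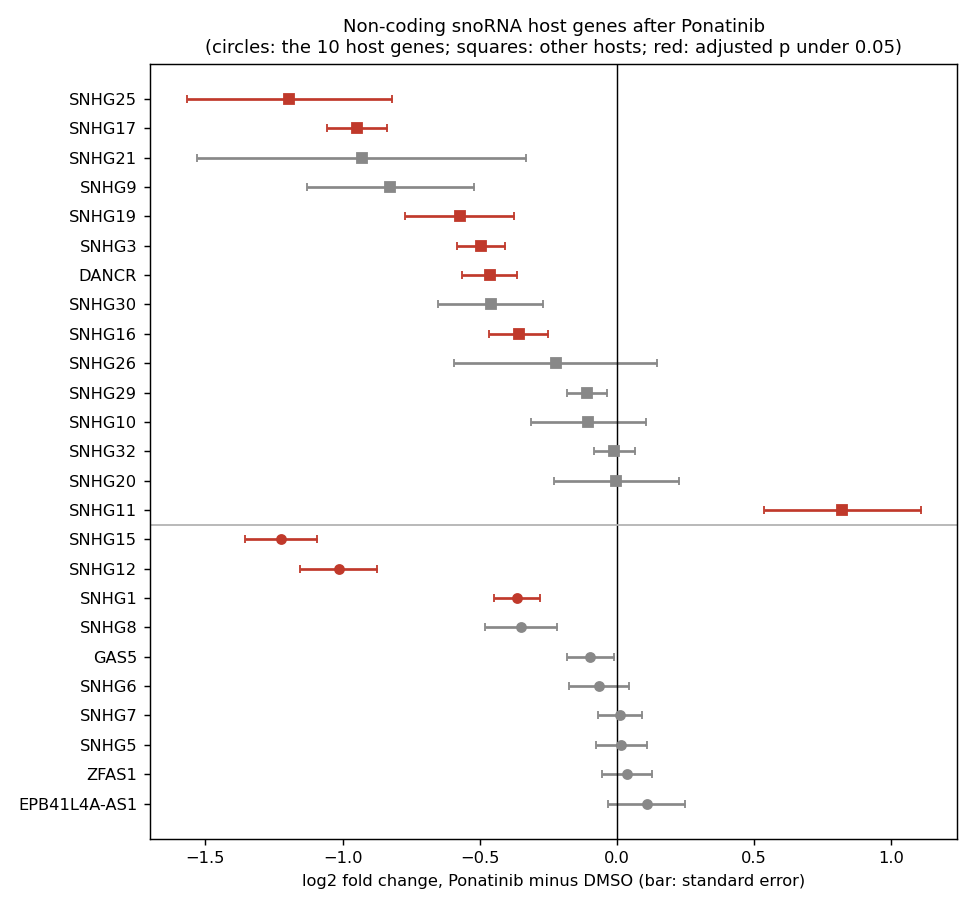
Log2 fold change of Ponatinib minus DMSO (horizontal axis) for the 10 hosts (circles, lower block) and the 15 other non-coding hosts tested (squares, upper block), with bars for the standard error and red for an adjusted p under 0.05. SNHG15 and SNHG12 stand at -1.22 and -1.01, while 6 of the 10 lie between -0.10 and 0.11.

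The 10 hosts shared a difference between the Ponatinib replicates. Every host was lower in Ponatinib replicate 2 than in replicate 1 after normalization, with a ratio of 0.648 for SNHG8, 0.727 for SNHG15, 0.751 for SNHG6, 0.759 for SNHG5, 0.764 for EPB41L4A-AS1 and 0.779 for SNHG12. The other 4 were closer to 1, at 0.827 for SNHG1, 0.831 for GAS5, 0.859 for SNHG7 and 0.883 for ZFAS1. The median ratio of the hosts was 0.772, whereas over the 10278 genes with a mean of at least 100 counts the median was 1.001 and 49.6% were lower in replicate 2. Between the DMSO replicates the hosts were closer, with 8 of 10 lower in replicate 2 and a median ratio of 0.959 (0.872 to 1.067). Of the other lists described next, the same ratio in the Ponatinib pair had a median of 0.84 in 6 non-coding hosts with that depth, 0.882 in snoRNP proteins, 0.945 in protein-coding hosts, 0.948 in 5′ TOP mRNAs and 0.99 in NMD factors. The direction was not particular to the 10 hosts. Replicate 2 was lower in all 6 of those non-coding hosts, 17 of 18 snoRNP proteins and 16 of 17 protein-coding hosts. It was lower in 5′ TOP mRNAs (13 of 16) and NMD factors (9 of 16) as well. Depth was also lowest in Ponatinib replicate 2, and its part in the ratio was not tested.

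**Figure D3:**
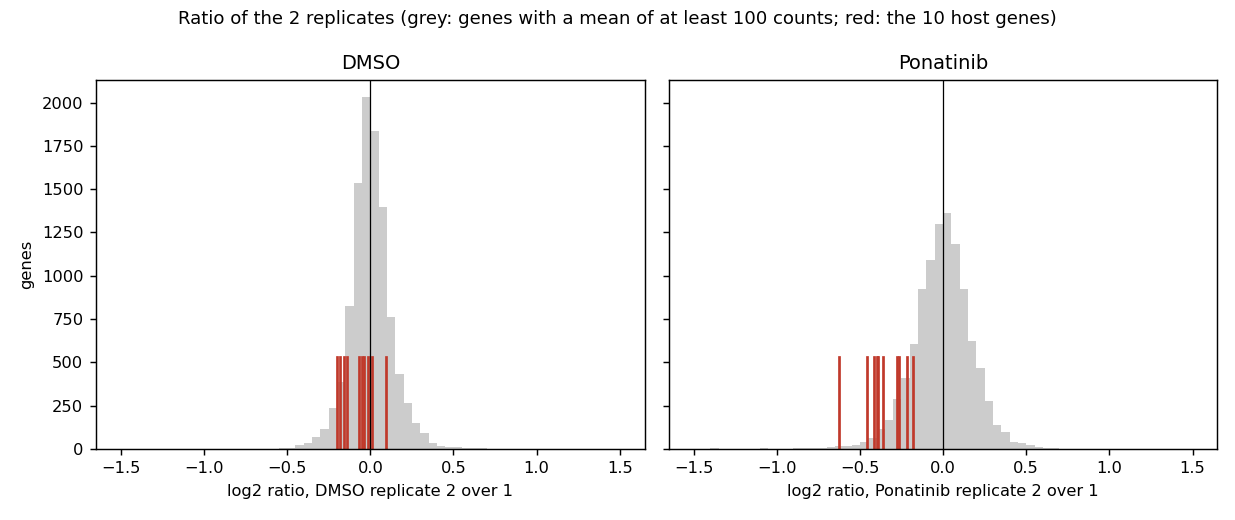
Distribution over 10278 genes (grey, number of genes on the vertical axis) of the log2 ratio of replicate 2 over replicate 1 for DMSO (left) and Ponatinib (right), with the 10 hosts as red lines of arbitrary height (genes beyond 1.5 on either side are not drawn). All 10 lines lie below 0 in the Ponatinib panel, at ratios of 0.648 to 0.883, and 8 of 10 in the DMSO panel.

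Other genes of the snoRNA pathway were read from lists of known members. Their counts of called genes stand beside 30.7% of all genes tested called and 15.7% called lower. Among genes with a mean of at least 100 counts these shares were 38.6% and 20.9%. Of 19 other non-coding hosts, 15 passed the filter on low counts, and 6 fell and 1 rose after Ponatinib, with a median log2 fold change of -0.46. SNHG25 was at 2.92 and 1.82 CPM with DMSO and 1.05 and 1.04 with Ponatinib (log2 fold change -1.19, edgeR adjusted p = 0.0254), and SNHG17 at 38.9 and 39.6 against 22.2 and 18.1 CPM (-0.95, edgeR adjusted p = 9.29e-06). SNHG11, at few counts, rose from 1.68 and 1.92 to 3.33 and 2.99 CPM (0.82, edgeR adjusted p = 0.0411). The other falls were in SNHG3, SNHG16, SNHG19 and DANCR, at -0.36 to -0.57. Without DMSO replicate 1 fewer genes of this list were called, and a smaller share of all genes was called too.

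Of 18 protein-coding hosts, 6 fell and 1 rose (median -0.10). WDR43, a nucleolar factor of ribosomal RNA transcription and processing, fell from 88.9 and 81.9 to 39.0 and 40.6 CPM (log2 fold change -1.11, edgeR adjusted p = 6.89e-08). DKC1, the pseudouridine synthase of the H/ACA particle and itself a host, fell from 192.5 and 185.5 to 115.5 and 112.1 CPM (-0.73, edgeR adjusted p = 5.46e-07). HSPA9, the mitochondrial heat shock protein, rose from 594.1 and 570.2 to 662.3 and 648.9 CPM (0.17, edgeR adjusted p = 0.034). Without Ponatinib replicate 1 more genes of this list were called, and the share of all genes called was also somewhat larger.

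Genes for the proteins of snoRNA particles (snoRNPs) fell in part. Of 18 core and assembly proteins, 12 fell, none rose, and the median was -0.33. They include the box C/D core proteins FBL, NOP56, NOP58 and SNU13, the H/ACA proteins DKC1 and GAR1, and the assembly factors NAF1, SHQ1, ZNHIT6, RUVBL1, RUVBL2 and NOLC1. NOLC1, a nucleolar and Cajal body phosphoprotein that binds both classes, fell from 319.4 and 324.9 to 182.3 and 188.5 CPM (log2 fold change -0.80, edgeR adjusted p = 1.35e-07). Both DMSO values were above both Ponatinib values for NOLC1 and for DKC1. Fewer genes of this list, and a smaller share of all genes, were called without DMSO replicate 1. NOP56 and DKC1 belong to this list and to that of the coding hosts.

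NMD factors and 5′ TOP mRNAs had medians near 0. The calls in 5 of 16 NMD factors are near the 30.7% of all genes called. Of 16 NMD factors, DHX34 (-0.54, edgeR adjusted p = 0.000452) and the exon junction protein MAGOH (-0.24, edgeR adjusted p = 0.0385) fell, and UPF3A, UPF3B (0.34, edgeR adjusted p = 0.0119) and the endonuclease SMG6 (0.25, edgeR adjusted p = 0.0402) rose. The list's median was -0.02. Its calls were fewer with either DMSO library left out, as were those over all genes. They were also fewer without Ponatinib replicate 1, where a larger share of all genes was called. Of 17 mRNAs with a known 5′ TOP sequence, 16 were tested, of which none fell, and only the translation initiation factor EIF4B rose, from 255.7 and 265.5 to 302.1 and 309.4 CPM (0.23, edgeR adjusted p = 0.0086). The TOP median was 0.02. Its calls were more numerous with either Ponatinib library left out, where the share of all genes called was also somewhat larger. They were fewer with either DMSO library left out, where that share was smaller. EEF1B2, EEF2 and RACK1 are both TOP mRNAs and coding hosts.

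**Figure D4:**
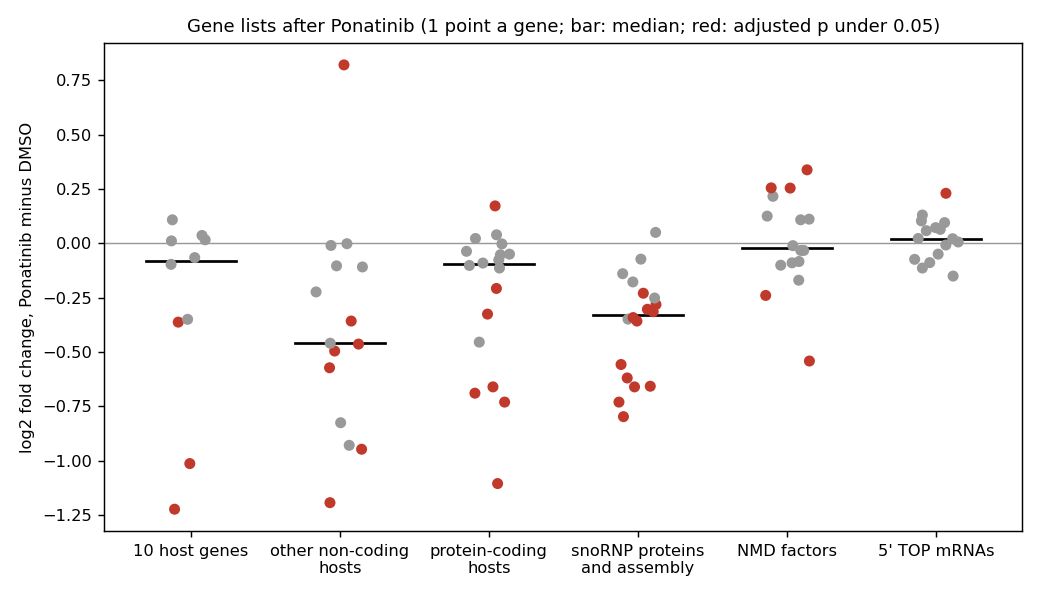
Log2 fold change of Ponatinib minus DMSO (vertical axis) for each tested gene of the 10 hosts and 5 other lists, with bars for the median and red points for an adjusted p under 0.05. The medians run from -0.46 for the other non-coding hosts and -0.33 for the snoRNP proteins to 0.02 for the 5′ TOP mRNAs.

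The snoRNAs themselves were hardly counted by these libraries. Of the 35 inside the 10 hosts, 23 had a symbol among the counted genes, 16 of those had no count in any library, and none passed the filter on low counts. SNORD99, inside SNHG12, was the only one to reach 10 counts, with 18 and 3 counts in the DMSO libraries, 3 and 2 with Ponatinib and 5, 6, 5 and 1 in the scrambled, ABL1, ABL2 and double shRNA libraries. The high value of SNORD99 was in DMSO replicate 1 alone. The remaining snoRNAs had at most 7 counts in a library, and a change in them could not be read from these libraries. Why they were hardly counted was not tested.

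Genes on the opposite strand overlap several hosts, and the strand setting of the counting is not given in the sources used here, so reads in the overlaps cannot be assigned to one strand. ZNFX1, which shares 249 bases with ZFAS1, fell by 0.29 on the log2 scale (edgeR adjusted p = 0.00315), whereas ZFAS1 itself did not pass the test. TRNAU1AP, with 8 bases in common with SNHG12, was at 0.19 (edgeR adjusted p = 0.334). ZBTB37 (0.18), PRSS12 (-0.05), DIPK1B (0.11) and EPB41L4A (0.32), which overlap GAS5, SNHG8, SNHG7 and EPB41L4A-AS1, did not pass either. No annotated gene other than small RNA genes overlapped SNHG1 or SNHG15. GAS5-AS1, over GAS5, and MCMDC2, over SNHG6, had too few counts to be tested. On the strand of SNHG5 itself, the pseudogene PKMP3 had at most 2 counts in a library, and the unnamed ENSG00000271793, which shares 28243 bases with SNHG5, had 0 counts in all 8.

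In the knockdowns each condition was a single library, so the differences have no replicate check, and ratios are given with exact 95% intervals that cover counting error only. The 3 knockdowns share the scrambled library. With both shRNAs ZFAS1 was lower by more than 1.5-fold, SNHG12 and EPB41L4A-AS1 were lower past that limit in the ABL2 shRNA library, and no host was past it in the ABL1 shRNA library. With libraries scaled by total counts, EPB41L4A-AS1 (-0.58 on the log2 scale) and SNHG12 (-0.54) were just inside the limit with ABL2 shRNA, and no host was past it there. The background is 24.3%, 20.4% and 21.8% of all genes past 1.5-fold in either direction for ABL1, ABL2 and both. Among genes with a mean of at least 100 counts in the libraries compared it is 14.7%, 9.98% and 11.7%, of which 7.58%, 4.41% and 5.74% of genes were lower.

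EPB41L4A-AS1 was at 27.6 normalized CPM with scrambled shRNA, 22.0 after ABL1 and 17.9 after ABL2 knockdown, and 22.7 after both. The scrambled library was the highest, and the ratios were 0.796 (0.676 to 0.938), 0.648 (0.544 to 0.771) and 0.822 (0.697 to 0.970). ZFAS1 was at 37.2, 31.8, 25.6 and 23.4 CPM in the same order. Its scrambled library was again the highest, with ratios of 0.855 (0.744 to 0.981), 0.688 (0.594 to 0.798) and 0.628 (0.539 to 0.732). SNHG12, at 14.3, 12.0, 9.55 and 12.6 CPM, had its lowest value with ABL2 shRNA, where the ratio of 0.666 sits on the 1.5-fold line and its interval spans 0.521 to 0.848.

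GAS5 was at 164.0, 146.4, 130.9 and 127.1 CPM with scrambled, ABL1, ABL2 and both shRNAs, highest in the scrambled library, with ratios of 0.892, 0.798 and 0.775 whose intervals were all below 1. SNHG5 showed the same order at 153.7, 138.7, 132.9 and 123.3 CPM, with ratios of 0.903, 0.865 and 0.802. SNHG1 was equal in the scrambled and ABL1 shRNA libraries within counting error, at 85.2 and 85.7 CPM, and was at 66.4 with ABL2 shRNA and 69.0 with both (ratios 0.779 and 0.810, both intervals below 1). SNHG15 was at 17.7, 14.8, 14.4 and 17.5 CPM, and its ratio of 0.992 with both shRNAs was the only value among the hosts to change sides of 1 when libraries were scaled by total counts.

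SNHG7 was the only host with its lowest value in the scrambled library, as 28.9% of genes with a mean of at least 100 counts had. It was at 35.6 CPM against 41.1, 37.7 and 47.8, with a ratio of 1.346 (1.183 to 1.532) with both shRNAs. SNHG8 was at 37.2, 40.9, 44.4 and 34.9 CPM, higher than scrambled with ABL2 shRNA (ratio 1.193, 1.049 to 1.357) and close to it with both (0.938). SNHG6 was at 39.3, 44.7, 37.0 and 37.4 CPM, within 1.14-fold of scrambled in each knockdown.

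**Figure D5:**
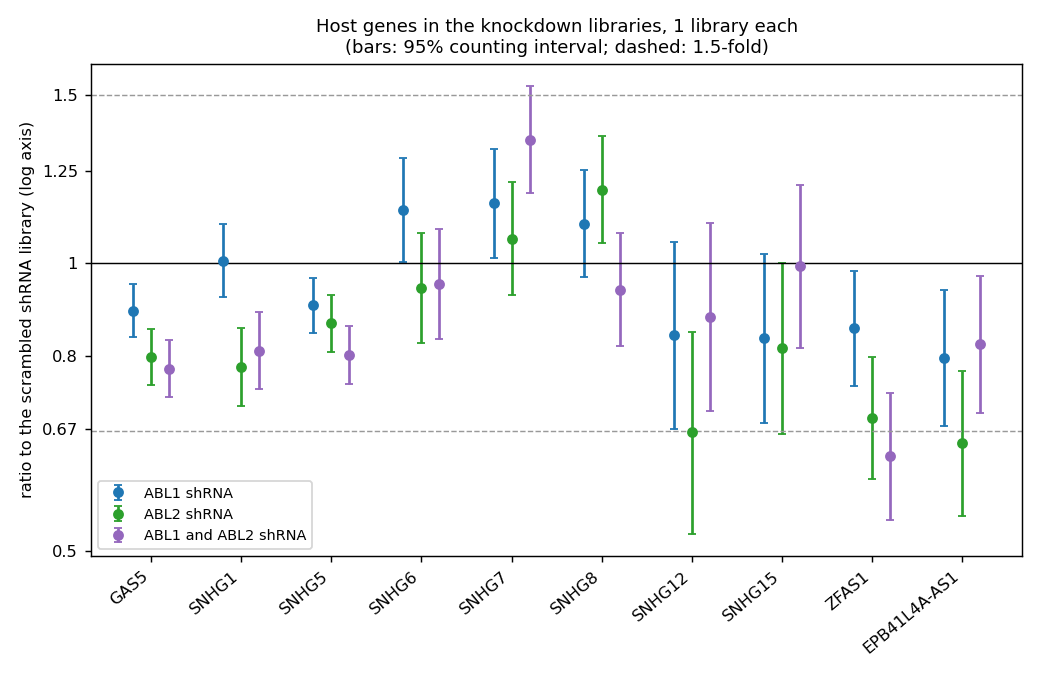
Ratio of each knockdown library to the scrambled shRNA library (vertical log axis) for the 10 hosts, with bars for the exact 95% counting interval and dashed lines at 1.5-fold. ZFAS1 with both shRNAs (0.628) and EPB41L4A-AS1 with ABL2 shRNA (0.648) lie below the lower line, and SNHG7 with both shRNAs (1.346) is the highest point.

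Of the 10 hosts, 6 were below scrambled in the ABL1 shRNA library, 8 in that of ABL2 and 9 in the double knockdown, and the median log2 ratios were -0.16, -0.31 and -0.23, beside 0.00, -0.01 and 0.00 over all genes. The 5′ TOP mRNAs had medians of -0.06, -0.24 and -0.14 in the same libraries. The scrambled library was the highest of the 4 in 6 hosts, GAS5, SNHG5, SNHG12, SNHG15, ZFAS1 and EPB41L4A-AS1, while it was the highest for 32.0% of genes with a mean of at least 100 counts. All knockdowns are measured against this 1 library, and a high scrambled value and a lower value in each knockdown cannot be told apart. In a fit of all 8 libraries, whose spread came from the DMSO and Ponatinib pairs, edgeR called SNHG1, ZFAS1 and EPB41L4A-AS1 lower with ABL2 shRNA and GAS5 and ZFAS1 lower and SNHG7 higher with both, where it called 15.6% and 17.8% of all genes, whereas DESeq2 in the same design called no host and 6.98% and 9.38% of all genes.

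Set side by side, SNHG15 and SNHG12, the hosts with the largest falls after Ponatinib, had log2 ratios of -0.26 and -0.25 with ABL1 shRNA, -0.30 and -0.59 with ABL2 shRNA, and -0.01 and -0.19 with both, while ZFAS1, at -0.23, -0.54 and -0.67 in the same libraries, was at 0.04 after Ponatinib. Whether the drug and the knockdown effects differ was not tested, since the knockdown has no replicates. Time also differs, at 6 h for Ponatinib against 48 h with lentivirus and then puromycin selection of unstated length for the shRNAs. The drug also changed the RNA of its targets. ABL2 was called lower, from 335.3 and 306.0 normalized CPM with DMSO to 147.7 and 169.2 with Ponatinib (-1.02 on the log2 scale). ABL1 was called higher, from 165.6 and 162.8 to 182.6 and 193.7 CPM (0.19). A reduced level of ABL2 RNA is therefore not confined to the knockdowns, and its part in the drug's effect on the hosts was not tested. In all of these bulk libraries, fewer cells with a transcript and less of it in each cell cannot be told apart.

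The genes whose pattern was most like the mean of the 10 hosts were TRAF4 (Pearson r = 0.986), RPL36 (0.985), NOL7 (0.978), DAP3 (0.975) and SLC25A3 (0.975), from 8987 genes, across the 8 libraries, on log2 CPM centred within each experiment. Their log2 fold changes after Ponatinib, -0.33, -0.31, -0.27, -0.17 and -0.10 in that order, come from libraries that chose them and are given as a description. Within the hosts, the correlation with the mean of the other 9 ran from 0.939 for SNHG1 and 0.849 for SNHG12 to 0.451 for ZFAS1 and 0.188 for SNHG7. The points share libraries and depth, and in particular the low Ponatinib replicate 2 and the high scrambled library.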

How the data were processed

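The authors prepared libraries with the NEBNext Ultra RNA kit, sequenced them on an Illumina HiSeq and mapped the reads to hg38 with Bowtie/TopHat. The submitters' processing notes name FastQC, TopHat and HTSeq 0.6.0. The deposited values are raw read counts per gene, 1 table a library, without normalization. Strand setting and annotation version are not given in the sources used here. Counter summary entries are present in the 4 shRNA tables and were left out of the totals (no feature 9.48% to 9.90% of the reads in those tables, ambiguous 6.12% to 6.32%).

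Symbols and positions came from GENCODE on GRCh38 (54836 of 58688 IDs matched). SnoRNAs and promoters came from RefSeq. The members and the gene lists were chosen with earlier results of these data known. The genes named are the 10 hosts, snoRNAs inside them with at least 10 counts in a library, the 5 genes most like their mean (at least 100 counts in every library), up to 2 called rises and 2 falls of each list, genes overlapping a host, ABL1 and ABL2. Other called genes of a list are named without their own test, and some overlapping genes are not reported here.

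For DMSO and Ponatinib, edgeR 4.0.16 (R 4.3.3) was run on the counts (TMM, filterByExpr, quasi-likelihood, prior count 0.125). Normalized CPM use TMM within each experiment. Intervals of fold changes use the fit's own degrees of freedom. A knockdown library was compared with the scrambled one by the ratio of normalized CPM, with no test. Intervals cover counting error only. On counts simulated at the depths of the Ponatinib comparison, over 15790 genes, 89 of 100 genes changed by 1.5-fold were recovered. Of those changed by 2-fold 95 of 100 were recovered, and 9 unchanged genes were called. The simulation gave both groups the same spread and changed only 200 of the better counted genes. It held no shift shared by many genes in 1 library, so it does not describe the wider gap between the Ponatinib replicates. Alternatives were DESeq2 1.42.0, DESeq2's size factors, total counts, other filters, the replicate block, a fit of all 8 libraries, mitochondrial genes left out, a 2-fold limit and leaving out each replicate. Samples with the same repeat number did not deviate together (r = -0.0198 over 9421 genes), so they were not treated as pairs.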

Additional observations from a re-analysis of the deposited data

How the results depend on the processing

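Of 110 recomputed fold changes of the hosts after Ponatinib, 93 kept their direction and side of the threshold. SNHG12 and SNHG15 were called lower in every alternative run. With 1 library left out in turn, the sign of 6 hosts that were not called turned: GAS5 ran from -0.233 without Ponatinib replicate 1 to 0.02 without Ponatinib replicate 2, SNHG5 from -0.193 to 0.19, SNHG6 from -0.295 to 0.104, SNHG7 from -0.101 to 0.106 and EPB41L4A-AS1 from -0.108 to 0.266 between the same fits. ZFAS1 was at -0.057 without DMSO replicate 2, -0.055 without Ponatinib replicate 1 and 0.139 without DMSO replicate 1. SNHG7 was at -0.005 in the fit of all 8 libraries. A replicate block on the repeat number gave 4 called hosts, and 4984 genes were called in place of 4917 and SNHG8 was called lower (-0.38, edgeR adjusted p = 0.00874), as it was with DESeq2's size factors (0.0486), without the filter on low counts (0.000409) and in the fit of all 8 libraries (0.033), but not with DESeq2's own test (0.472).

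Leaving out 1 library gave 2 to 7 called hosts, 2800 to 5744 called genes, 3 to 8 called other non-coding hosts, 5 to 13 protein-coding hosts, 7 to 15 snoRNP proteins, 1 to 6 NMD factors and 0 to 8 5′ TOP mRNAs. DESeq2 called 2568 genes, 3 other non-coding hosts and 1 NMD factor, and the fold rule 878 genes. Without the filter, 1 of 6 snoRNAs was called, SNORD99 (-1.81, edgeR adjusted p = 0.036), which rests on DMSO replicate 1. That fit called 16.7% of all genes, a share near that of the snoRNAs. With ABL2 shRNA 0 hosts were past the limit with total counts, 0 past 2-fold (8.07% of all genes were) and 0 called by DESeq2 (6.98%). With both shRNAs 0 were past 2-fold (8.22%), 3 were called by edgeR (17.8%) and 0 by DESeq2 (9.38%) with borrowed spread; counts of 0 among 10 hosts are near these shares. Of hosts near 100 counts, SNHG12 and SNHG15 have the widest counting error.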

Other observations

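The levels of the hosts differed between the control libraries of the experiments. With counts divided by library totals, SNHG7 was at 34.8 CPM with scrambled shRNA and 72.7 and 72.2 CPM with DMSO, a ratio of 0.48 to the DMSO mean. SNHG15 (0.557), SNHG8 (0.576), SNHG1 (0.624) and SNHG12 (0.636) were also lower with scrambled shRNA. GAS5 was level (1.012), and EPB41L4A-AS1 was higher, at 27.0 CPM against 15.5 and 16.5 (1.691). The libraries differ in experiment, lentivirus and selection as well as in preparation, and these cannot be told apart.

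The other non-coding hosts had median log2 ratios of 0.11, -0.07 and -0.02 with ABL1, ABL2 and both shRNAs, and the snoRNP proteins -0.04, -0.12 and -0.05. DHX34, which fell after Ponatinib, was at 37.4 CPM with scrambled shRNA and 25.7, 24.9 and 28.9 in the knockdowns. WDR43 was at 61.3 CPM with scrambled shRNA, 41.6 after ABL1, 52.2 after ABL2 and 41.2 after double knockdown. NOLC1 and SNHG17, which also fell after Ponatinib, were below scrambled with ABL2 shRNA alone. In the same order NOLC1 was at 202.8, 222.0, 158.6 and 204.05 CPM and SNHG17 at 19.9, 21.9, 15.1 and 20.75. DKC1 was at 91.6, 89.4, 71.3 and 85.4 CPM and MAGOH at 35.4, 35.4, 29.0 and 29.3. SNHG25, at few counts, was at 1.06, 0.85, 0.64 and 0.33 CPM. These are single libraries against the same scrambled control.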
